A study of Mus musculus with 11 samples.

Results

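The genes described here are the 7 that encode the core of major histocompatibility complex (MHC) class II antigen presentation: the surface chains H2-Aa, H2-Ab1 and H2-Eb1, the invariant chain Cd74, the peptide editor subunits H2-DMa and H2-DMb1, and the transactivator Ciita. They were chosen by name as rows of the deposited table, which holds 54513 genes, and all 7 were found and passed the filter on low counts. After dextran sulphate sodium (DSS), every DKO library lay below every WT library for each of the 7 genes, and the summed level of the 7 genes was 91.7 to 145 counts per 1000000 counts (CPM, scaled for composition by TMM) in DKO and 312 to 555 CPM in WT. H2-Aa, H2-Eb1 and H2-DMb1 passed the test across all genes. At baseline none passed, and 1 of the 2 WT libraries had a summed level of 410.4 CPM, within the range of the DSS WT libraries, while the other, at 78.9 CPM, was near the DKO libraries.

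RNA was sequenced from colonic epithelial cells of mice, passed through a step on 40% Percoll, a density medium, that was meant to remove lymphocytes. The 4 groups were DSS DKO (n = 3), DSS WT (n = 3), baseline DKO (n = 3) and baseline WT (n = 2). DKO mice are double knockouts for the microRNA clusters miR-181a1-b1; miR-181a2-b2, which encode members of the miR-181 family, and WT mice carry both clusters. DSS, a polysaccharide that injures the colonic epithelium, was given at 2% for 7 days with 2 days of recovery, and the other libraries are labelled baseline. All cells were labelled intestinal epithelial cells of the colon. The labels give neither strain, age nor sex, nor whether the deletions act in all tissues or how many mice a library holds. The libraries are called biological replicates, and p-values measure the spread between them, which may be partly technical.

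Libraries held 41631951 to 52761900 counts. The 4 deleted microRNA rows, Mir181a-1, Mir181b-1, Mir181a-2 and Mir181b-2, held 0 counts in all 11 libraries, so they do not check the genotype labels. The related row Mir181a-1hg held 21 to 31 counts in DSS DKO, against 10 to 15 in DSS WT. At baseline it held 14 to 19 counts in DKO, against 4 to 8 in WT. These counts are low, and how the deletion affects this row is not given. Rn18s-rs5, a ribosomal RNA entry, took 23.05% and 8.462% of counts in baseline DKO replicates 1 and 2 and between 0.1281% and 1.586% in the other libraries. Xist, expressed from the inactive X chromosome of females, was at 633 to 906 CPM in the 6 DSS libraries and 6.75 to 14.5 CPM in the 5 baseline libraries. Ddx3y, a Y-linked gene, was at 0.162 to 0.895 CPM in the DSS libraries and 42.6 to 54.9 CPM in the baseline libraries. Sex and DSS treatment cannot be told apart in any comparison of DSS with baseline, nor in how the genotype difference changed between them. Both comparisons of genotype were made within 1 sex pattern.

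In the GENCODE M21 annotation of GRCm38 (mm10), 5 of the 7 genes lie in the class II region of chromosome 17: H2-DMa (chr17:34119541-34139101), H2-DMb1 (chr17:34153072-34160230), H2-Ab1 (chr17:34257689-34269419), H2-Aa (chr17:34282744-34287823, minus strand) and H2-Eb1 (chr17:34305867-34316674). Cd74 (chr18:60803848-60812652) and Ciita (chr16:10480059-10528418) lie elsewhere. All but H2-Aa are on the plus strand. Exons of Ciita overlap those of Dexi by 329 bases and exons of H2-DMa overlap those of Brd2 by 360 bases, both on the opposite strand, and the strand setting of the counts is not given in the sources used here. Of the 50-base words in the exons of H2-DMb1, 22.65% also occur in its neighbour H2-DMb2, so reads in those stretches cannot be assigned with certainty. For the other 6 genes the share of such words found in any other gene was 0 or, for H2-Aa, 0.4882%.

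MHC class II molecules are dimers of an alpha and a beta chain that carry peptides from endosomes to the cell surface, where CD4 T cells read them. The invariant chain guides the dimers to endosomes and fills the groove until its last fragment is exchanged for a peptide by the H2-DM editor, which H2-O restrains. Ciita does not itself bind DNA but joins a set of factors on the conserved promoter boxes of these genes and switches them on together. Dendritic cells, macrophages and B cells express the genes constitutively, and intestinal epithelial cells express them when exposed to interferon-gamma. In bulk RNA, fewer cells of a class II positive type and less RNA per cell cannot be told apart.

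The promoters of H2-Aa, H2-Eb1, H2-DMb1 and the paralog H2-DMb2 are shown as examples of class II promoters that hold such boxes. Whether the boxes bear on the levels in these libraries was not tested. The RefSeq promoter table (GRCm38.p6) gives 250 bases before and 50 bases from each annotated start, and held H2-Aa, H2-Eb1, H2-DMa and H2-DMb1 among the 7 genes. H2-Ab1, Cd74 and Ciita are named only. For H2-DMb1 and H2-DMb2 the RefSeq start lies downstream of the GENCODE start (chr17:34153072 and chr17:34143307). Their stretches below therefore lie within the GENCODE genes. In the stretches below, read on the strand of the gene, capitals mark an X-type box (AACNGATG), a cAMP-response box (TGACGTCA) and a Y-type box (TGATTGG).
H2-Aa, chr17:34287847-34287917, minus strand: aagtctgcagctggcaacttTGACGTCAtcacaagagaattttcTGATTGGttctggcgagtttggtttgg
H2-Eb1, chr17:34305758-34305832, plus strand: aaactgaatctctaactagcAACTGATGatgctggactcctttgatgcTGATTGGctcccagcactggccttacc
H2-DMb1, chr17:34153079-34153154, plus strand: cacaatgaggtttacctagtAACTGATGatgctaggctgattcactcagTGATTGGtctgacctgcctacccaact
H2-DMb2, chr17:34145108-34145183, plus strand: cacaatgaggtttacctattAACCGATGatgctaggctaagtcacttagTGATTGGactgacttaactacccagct

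The X-type and Y-type boxes were separated by 20 bases in H2-Eb1 and by 21 bases in H2-DMb1 and in H2-DMb2, and in H2-Aa 16 bases separated the cAMP-response box from the Y-type box. Searched on both strands, the X-type letters were found in 2.32% of 32851 promoter windows, the cAMP-response letters in 1.79% and the Y-type letters in 7.817%. An X-type box followed by a Y-type box within 60 bases on the strand of the gene was found in 7 windows (0.02131%), of which 4 belonged to class II genes (H2-Eb1, H2-Eb2, H2-DMb1 and H2-DMb2). The letters were chosen with these windows in view, so this share is a description. The windows of H2-DMa held none of these letters, nor those of a gamma-activated site (TTCNNNGAA, in 8.298% of all windows). The gamma-activated letters were found in the window of H2-DMb2 and not in those of H2-Aa, H2-Eb1 and H2-DMb1.

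**Figure D1:**
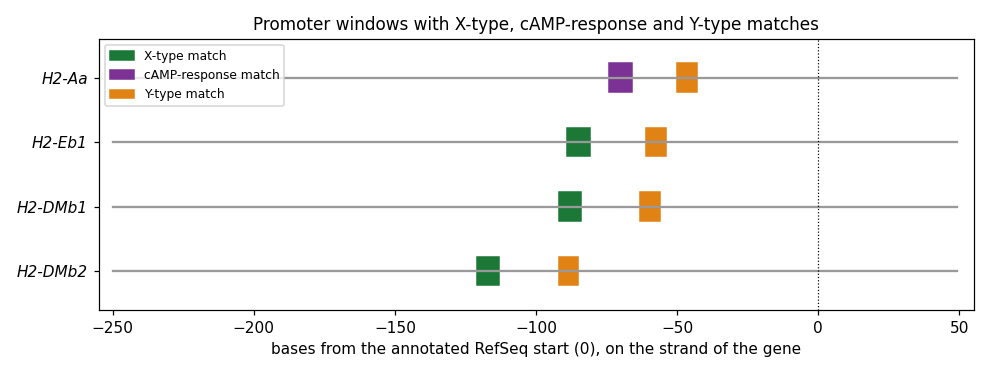
Positions of the promoter boxes in the RefSeq windows of 4 class II genes, drawn to scale, with distance in bases from the annotated start (dotted line) on the x axis and the colour of each block giving the type of box. In all 4 windows a Y-type box lies downstream of an X-type or cAMP-response box, with 16 to 21 bases between them.

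The question of the first comparison was whether the genotype changed these transcripts in mice given DSS. All 3 surface chains were lower in every DKO library than in any WT library, and 2 of the 3 passed the test. H2-Aa, the alpha chain of the I-A molecule, was at 13.4, 19.2 and 11.5 CPM in the DSS DKO libraries, against 112, 85.4 and 49.2 CPM in the DSS WT libraries. The lowest WT library was well above the highest DKO library, and H2-Aa fell by 2.48 ± 0.62 on the log2 scale (SE; edgeR quasi-likelihood test, Benjamini-Hochberg adjusted p = 0.0334), a 5.58-fold lower level. H2-Eb1, the beta chain of I-E, was at 14.2, 19.8 and 11.8 CPM in DSS DKO, against 71.9, 58.3 and 43.4 CPM in DSS WT. Its groups did not overlap either, and it fell by 1.92 ± 0.41 on the log2 scale (edgeR adjusted p = 0.0180). H2-Ab1, the beta chain of I-A, was at 25.8, 40.3 and 36.0 CPM in DSS DKO, against 160.0, 129 and 101 CPM in DSS WT. It differed by -1.93 ± 0.55 on the log2 scale without passing the threshold (edgeR adjusted p = 0.0542).

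The peptide editor was split by the test. H2-DMb1, its beta subunit, was at 6.42, 11.04 and 9.18 CPM in DSS DKO, against 34.5, 27.4 and 23.8 CPM in DSS WT, and fell by 1.69 ± 0.43 on the log2 scale (edgeR adjusted p = 0.0341). H2-DMa, its alpha subunit, was at 6.20, 8.83 and 10.05 CPM in DSS DKO, against 20.1, 15.8 and 14.6 CPM in DSS WT. The groups of H2-DMa were apart as well, but the log2 difference of H2-DMa (-1.01 ± 0.32) was the smallest of the 7 genes and missed the threshold (edgeR adjusted p = 0.0679). The counts of H2-DMa per count of H2-DMb1 were 0.800 to 1.09 in DSS DKO, against 0.576 to 0.614 in DSS WT. This ratio was looked at after the levels were seen and was not tested.

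The invariant chain and the transactivator lay in the same direction without passing. Cd74, the invariant chain, was at 22.7, 42.8 and 22.8 CPM in DSS DKO, against 140.3, 100.1 and 74.5 CPM in DSS WT, with a log2 difference of -1.83 ± 0.54 (edgeR adjusted p = 0.0588). Ciita was at 3.02, 2.51 and 1.247 CPM in DSS DKO, against 16.6, 4.64 and 5.58 CPM in DSS WT, with a log2 difference of -1.98 ± 0.63 (edgeR adjusted p = 0.0782). Within DSS WT, replicate 1 stood at 3.57 times the lowest library for Ciita, a wider spread than for the 6 other genes, whose highest DSS WT library was 1.38 to 2.27 times the lowest.

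Across the 7 genes, 3 passed in DKO against WT after DSS, all lower, where 11.2% of the 19267 genes tested passed in either direction and 5.98% passed as lower. All 7 had every DKO library below every WT library, which held for 17.9% of all genes tested. The median log2 difference of the 7 genes was -1.92, beside 0.03 over all genes tested. The log2 differences stayed negative in every alternative fit. The calls, however, depended on the libraries in the fit, in which the spread of each gene is estimated over all 4 groups. The counts called in the fits below are given without the share of all genes that each fit called, so they describe the settings only. Without baseline WT replicate 1, the library described below, all 7 passed, with edgeR adjusted p from 0.00106 (H2-Ab1) to 0.0420 (Ciita) and log2 differences within 0.01 of those above, and all 7 passed without baseline WT replicate 2 too (0.00108 to 0.0447). Among fits that left out 1 library, H2-Aa did not pass without DSS DKO replicate 3 (0.0549), and H2-DMb1 did not pass without DSS DKO replicate 1 (0.0516), DSS WT replicate 1 (0.0549), DSS WT replicate 3 (0.0689) or baseline DKO replicate 1 (0.0513). Without DSS WT replicate 2 none passed (lowest edgeR adjusted p = 0.0554, H2-Eb1), without DSS DKO replicate 2 only H2-Eb1 passed (0.0470), and without the 2 baseline DKO libraries rich in Rn18s-rs5 none passed (lowest 0.0568, H2-Eb1).

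**Figure D2:**
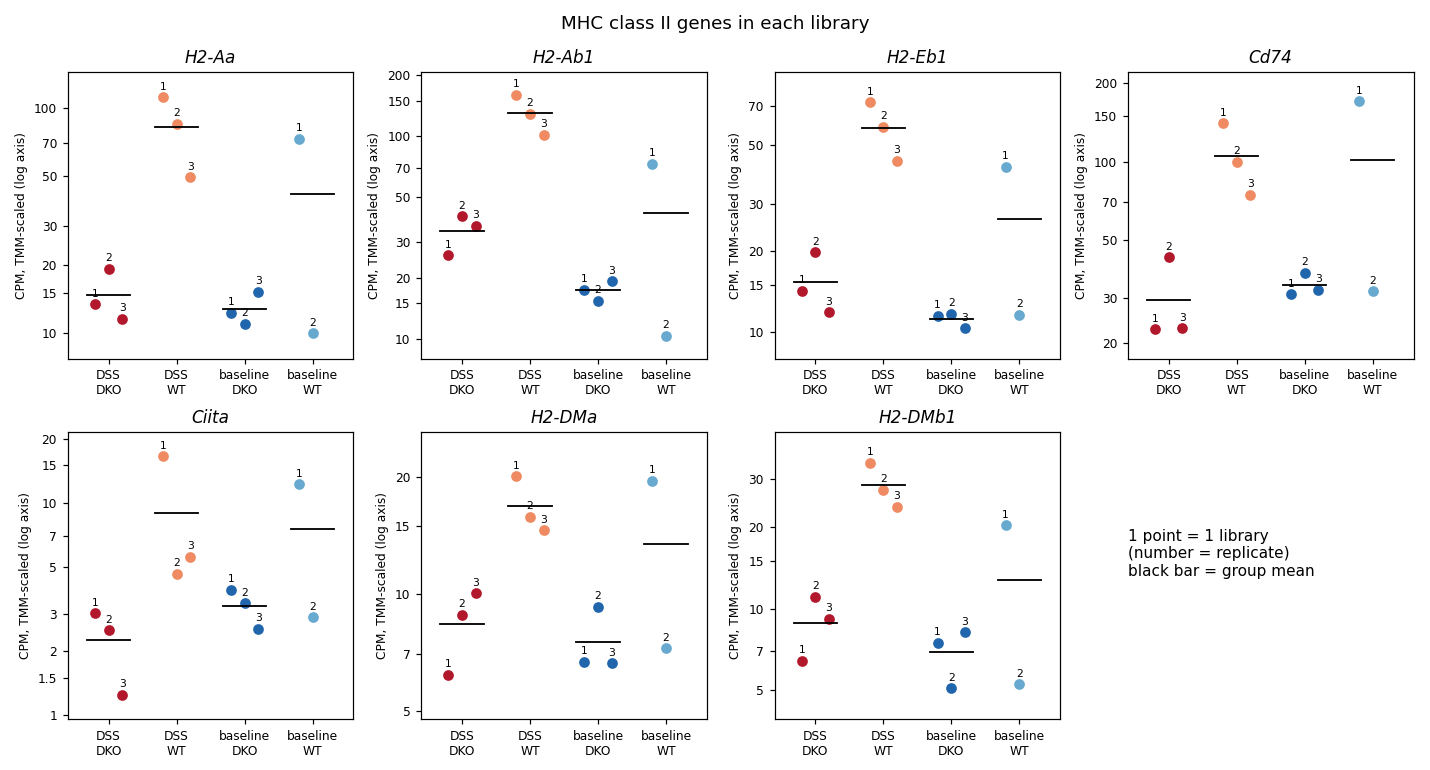
Level of each of the 7 MHC class II genes in each library, in TMM-scaled CPM on a log axis, with the 4 groups on the x axis; each point is 1 library numbered by replicate and each bar is a group mean. Every DSS DKO point lies below every DSS WT point, and baseline WT replicate 1 lies far above replicate 2 for all 7 genes.

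The second comparison asked the same of the baseline libraries. Baseline DKO libraries were close to each other, with the summed level of the 7 genes between 90.1 and 94.1 CPM. The baseline WT libraries were at 410.4 CPM (replicate 1) and 78.9 CPM (replicate 2). The DKO libraries therefore lay between the 2 WT libraries in the sum, near the lower.

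All 7 genes showed the gap between the WT libraries. H2-Aa was at 12.3, 10.9 and 15.2 CPM in baseline DKO, against 73.2 and 9.95 CPM in baseline WT, so that WT replicate 1 was 7.36 times replicate 2. H2-Ab1 was at 17.4, 15.4 and 19.2 CPM in baseline DKO, against 73.1 and 10.4 CPM in baseline WT, a gap of 7.06 times between the WT libraries. H2-Eb1 was at 11.5, 11.7 and 10.3 CPM in baseline DKO, against 41.4 and 11.5 CPM in baseline WT. WT replicate 2 was below all 3 DKO libraries for H2-Aa and H2-Ab1 and within their range for H2-Eb1. Cd74 was at 30.9, 37.4 and 32.04 CPM in baseline DKO, against 170.5 and 31.7 CPM in baseline WT, the highest Cd74 level of any library being that of baseline WT replicate 1. Ciita was at 3.90, 3.37 and 2.54 CPM in baseline DKO, against 12.2 and 2.89 CPM in baseline WT. For these genes too, WT replicate 2 fell within or next to the range of DKO. H2-DMa was at 6.69, 9.27 and 6.64 CPM in baseline DKO, against 19.6 and 7.25 CPM in baseline WT. H2-DMb1 was at 7.49, 5.08 and 8.17 CPM in baseline DKO, against 20.3 and 5.25 CPM in baseline WT. The DKO and WT ranges overlapped for all 7 genes.

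None of the 7 genes passed in DKO against WT at baseline by edgeR, and none by DESeq2, where 0.0260% of the genes tested (5 of 19267) passed by edgeR. The log2 differences were -0.83 to -1.70 with an edgeR adjusted p of 1 for every gene, and 4 of the 7 had an unadjusted p under 0.05 (0.0188 for H2-Eb1, 0.0209 for Cd74, 0.0273 for H2-Aa and 0.0381 for H2-DMa). Of all genes tested, 751 had an unadjusted edgeR p under 0.05 in this comparison. The differences of the 7 genes rested on 1 library. Without baseline WT replicate 1, H2-Ab1 differed by 0.74, H2-DMb1 by 0.40, H2-Aa by 0.36, Ciita by 0.17, Cd74 by 0.08 and H2-DMa by 0.05 on the log2 scale, all now higher in DKO, while H2-Eb1 differed by -0.05, again with an edgeR adjusted p of 1 for every gene.

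**Figure D3:**
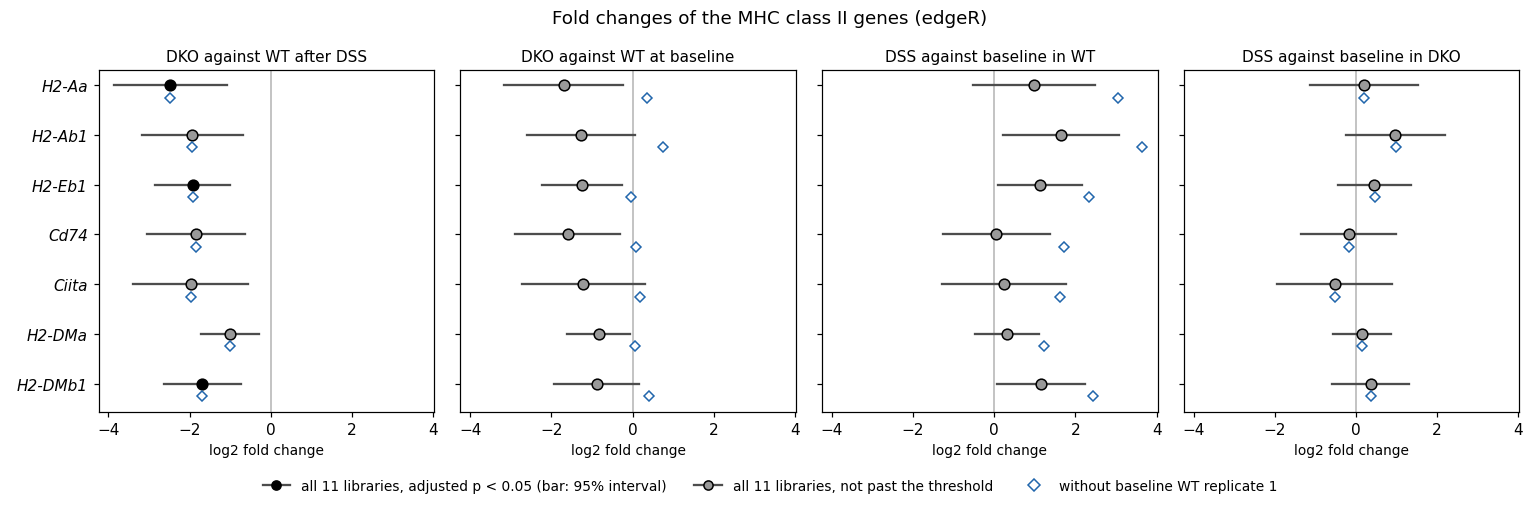
Log2 fold changes of the 7 genes in the 4 comparisons (x axis), with bars for the 95% interval of the edgeR fit on all 11 libraries, black points for genes past the threshold and grey points for the rest; open diamonds give the fold change without baseline WT replicate 1. After DSS the diamonds have the x values of the points, whereas at baseline they move to between -0.05 and 0.74, and for DSS against baseline in WT they move to between 1.22 and 3.65.

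DSS and baseline libraries were compared within each genotype, with the sex patterns confounded as given above. In DKO none of the 7 genes passed in DSS against baseline by edgeR or by DESeq2. By edgeR, 23.6% of the genes tested passed. None of the 7 had an unadjusted edgeR p under 0.05, which 7308 of the 19267 genes tested had. H2-Ab1 was the gene with the largest difference. All 3 DSS DKO libraries (25.8 to 40.3 CPM) were above all 3 baseline DKO libraries (15.4 to 19.2 CPM), with a log2 difference of 0.97 ± 0.54 (edgeR adjusted p = 0.221). It passed without baseline WT replicate 1 (edgeR adjusted p = 0.00694), without replicate 2 (0.00697) and in a fit of both DKO groups alone (0.0154). H2-Eb1 was likewise higher in every DSS library (log2 difference of 0.46 ± 0.40; edgeR adjusted p = 0.437), a separation that 20.4% of all genes tested showed in this comparison. In the other 5 genes the groups overlapped, and the log2 differences were -0.52 (Ciita) to 0.36 (H2-DMb1).

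In WT, none of the 7 genes passed in DSS against baseline by edgeR, where 33.4% of the genes tested passed. By DESeq2, 3 passed (H2-Ab1, H2-Eb1 and H2-DMb1), a count given without the share of all genes. The same 3 had an unadjusted edgeR p under 0.05, as had 8656 of the 19267 genes tested. H2-Ab1 differed by 1.64 ± 0.63 on the log2 scale (edgeR adjusted p = 0.0738), H2-DMb1 by 1.16 ± 0.48 (0.0913) and H2-Eb1 by 1.13 ± 0.46 (0.0849). For these 3 genes all DSS WT libraries were above both baseline WT libraries, as for 31.9% of all genes tested. H2-Eb1 passed without DSS DKO replicate 3 (0.0447). H2-Aa (0.98 ± 0.67), H2-DMa (0.33 ± 0.36), Ciita (0.24 ± 0.68) and Cd74 (0.05 ± 0.58) overlapped between the groups. Set against baseline WT replicate 2 alone, all 7 were higher after DSS on the log2 scale. H2-Ab1 was higher by 3.65, H2-Aa by 3.04, H2-DMb1 by 2.44, H2-Eb1 by 2.33, Cd74 by 1.73, Ciita by 1.63 and H2-DMa by 1.22. In that fit the single baseline WT library is assumed to vary like the other groups. Set against replicate 1 alone, the log2 differences of Cd74 (-0.68), Ciita (-0.44) and H2-DMa (-0.20) were negative.

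The interaction asks whether the genotype difference itself changed between baseline and DSS, a change in which sex and DSS cannot be told apart. None of the 7 genes passed by edgeR or by DESeq2, where 1.57% of the genes tested passed by edgeR. None of the 7 had an unadjusted edgeR p under 0.05, which 3636 of the 19267 genes tested had. The log2 interactions were -0.18 (H2-DMa) to -0.80 (H2-DMb1), with SEs of 0.48 to 0.93 and edgeR adjusted p of 0.547 to 0.903. Without baseline WT replicate 1 they were -1.06 (H2-DMa) to -2.84 (H2-Aa), the lowest edgeR adjusted p being 0.0544 (H2-Ab1). The smaller genotype difference at baseline is thus not shown to differ from that after DSS. The comparisons share their DSS WT, DSS DKO or baseline libraries and are not independent of each other.

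The 7 genes varied together between libraries, beyond the group means. In log2 CPM with each group's mean taken out, the correlation between pairs of the 7 genes was 0.553 to 0.984 with a median of 0.860 (21 pairs, 11 libraries). The pair with the highest value was H2-Eb1 and Cd74, and the lowest was Ciita and H2-DMa. The baseline WT pair held 81.14% of the squared within-group deviation of the 7-gene mean, DSS WT 12.91%, DSS DKO 5.913% and baseline DKO 0.04027%. In the 9 libraries of the other 3 groups, the correlations were 0.0647 to 0.938 with a median of 0.545. Among the DSS WT libraries, all 7 genes were highest in replicate 1 and 6 of 7 were lowest in replicate 3, while Ms4a1, a B cell gene, was highest in replicate 2. Points of 1 library share its depth and scaling, so these correlations describe the libraries and carry no test.

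**Figure D4:**
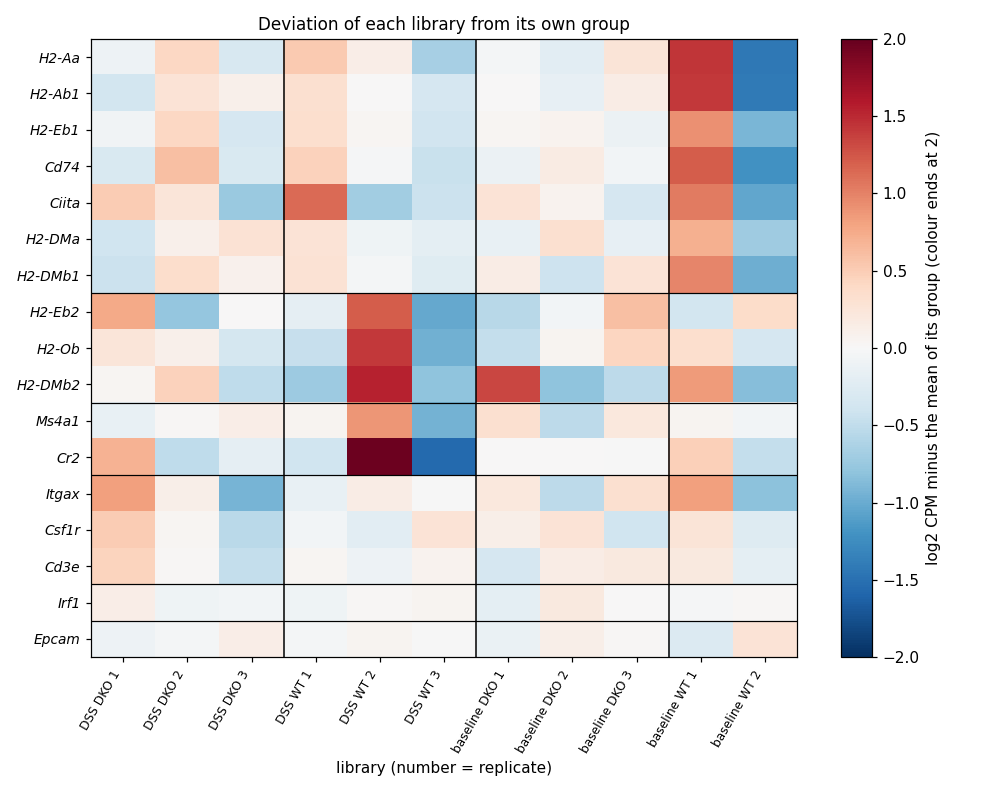
Deviation of each library (columns) from the mean of its own group in log2 CPM (colour), for the 7 class II genes (top rows), other genes of the class II region, and markers of B cells, dendritic cells, macrophages, T cells, interferon signalling and epithelium. The 7 class II genes share the high value of baseline WT replicate 1, whereas H2-Eb2, H2-Ob, H2-DMb2, Ms4a1 and Cr2 share a high value in DSS WT replicate 2.

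Among 11129 other genes, each averaging a log2 CPM of 1 or more, the 10 whose levels correlated best with the mean of the 7 genes over the 11 libraries were Clk3 (Pearson r = 0.949), Zfp27 (0.895), Ext1, Psmb8, Reps2, Homer2, H2-Q5, Nkg7, H2-Q7 and Lyst (0.858). Psmb8 is a subunit of the immunoproteasome, and H2-Q5 and H2-Q7 are MHC class I genes. The likeness draws on the same libraries as the comparison of DKO with WT after DSS, so the values of these genes in that comparison are a description: Clk3 differed by -0.18 on the log2 scale, Psmb8 by -0.88, H2-Q5 by -0.97 and H2-Q7 by -1.52. With group means taken out, the list was Clk3 (0.966), U6, Acvr2b, Med12, Ptpn18, Ptcd1, H2-Q5, Zfp27, Cacna1c and Rnf169 (0.870). Clk3, Zfp27 and H2-Q5 were in both lists. With 11 libraries and so many genes, high correlations also arise by chance.

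Levels were compared between genes per kilobase of the principal transcript. After DSS the order of the mean CPM per kilobase was H2-Ab1, Cd74, H2-Aa, H2-Eb1, H2-DMb1, H2-DMa and Ciita in both genotypes, with means of 28.1 for H2-Ab1 and 0.376 for Ciita in DKO and 107 and 1.49 in WT. At baseline Cd74 came first, at 23.7 CPM per kilobase in DKO and 71.7 in WT, followed in DKO by H2-Ab1 (14.3) and H2-Aa (11.3). The 4 genes from H2-Eb1 to Ciita kept their order in all 4 groups. Neighbours in these orders often overlapped between libraries, as did H2-DMb1 (4.57 to 7.86) and H2-DMa (3.74 to 6.06) in DSS DKO. Within a library, the counts of Cd74 per count of H2-Ab1 were 0.634 to 1.06 in DSS DKO and 0.735 to 0.877 in DSS WT, against 1.66 to 2.43 in baseline DKO and 2.33 to 3.06 in baseline WT. All 6 DSS libraries were below all 5 baseline libraries in this ratio, including baseline WT replicate 1. The ratio was picked after its values were seen and is confounded with sex, so it is given without a test.

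Of the 5 other genes of the class II region, 2 were lower in DKO after DSS and 3 did not pass, where 5.98% of all genes tested passed as lower. H2-Ob, the beta chain of H2-O, had 27, 22 and 14 counts in DSS DKO, against 50, 199 and 37 in DSS WT, and fell by 2.08 ± 0.58 on the log2 scale (edgeR adjusted p = 0.0409). H2-Eb2, a class II beta chain gene, had 20, 5 and 9 counts in DSS DKO, against 42, 120 and 24 in DSS WT, and fell by 2.35 ± 0.65 (0.0380). For both, DSS WT replicate 2 stood far above the rest, and without it neither passed (edgeR adjusted p = 0.234 for H2-Ob and 0.214 for H2-Eb2). The call of H2-Eb2 was also lost without DSS DKO replicate 2 (0.150), DSS DKO replicate 3 (0.0788) or baseline DKO replicate 2 (0.0546), and that of H2-Ob without any 1 library other than DSS WT replicates 1 and 3 (0.0537 to 0.234). H2-DMb2, the paralog of H2-DMb1, had 28, 35 and 15 counts in DSS DKO, against 26, 139 and 26 in DSS WT, and did not pass (0.366). H2-Oa, the alpha chain of H2-O, had 1 to 11 counts in every library. H2-Ea, the alpha chain partner of H2-Eb1, which several laboratory strains do not transcribe, had 0 to 14 counts in every library beside at least 371 counts of H2-Eb1.

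Most of the factors that hold Ciita on the promoters did not pass in DKO against WT after DSS, where 11.2% of genes tested passed. Of 7 such genes, Creb1, which binds the cAMP-response box, was lower in DKO after DSS (log2 fold change of -0.59 ± 0.11; edgeR adjusted p = 0.00793) and 6 did not pass. Rfx5, the DNA-binding subunit of the factor on the X box, was at 15.7, 17.9 and 21.2 CPM in DSS DKO, against 18.2, 17.0 and 16.9 CPM in DSS WT, with overlapping groups (log2 difference of 0.07 ± 0.15; edgeR adjusted p = 0.799). Creb1 was higher after DSS than at baseline in DKO (0.71 ± 0.11; 0.00147) and in WT (1.31 ± 0.13; 0.000131). Rfxank, another subunit of that factor, was lower after DSS than at baseline in DKO (-0.97 ± 0.19; 0.00431) and in WT (-0.71 ± 0.21; 0.0221). Without both libraries rich in Rn18s-rs5, neither Creb1 (0.0623) nor Rfxank (0.0503) passed in DKO, and in WT Rfxank did not pass without DSS WT replicate 2 (0.0767), DSS WT replicate 3 (0.0625) or baseline WT replicate 1 (0.245). Of all genes tested, 23.6% passed in DSS against baseline in DKO and 33.4% in WT.

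Of 7 genes for the processing and turnover of antigen and invariant chain, 1 was higher in DKO after DSS and 6 did not pass. In this comparison 11.2% of all genes tested passed in either direction. Lgmn, an endosomal protease that cuts antigens and the invariant chain, was at 103, 163 and 185 CPM in DSS DKO, against 40.1, 53.1 and 54.8 CPM in DSS WT, and rose by 1.60 ± 0.22 on the log2 scale (edgeR adjusted p = 0.00183), opposite in direction to the 7 class II genes. Ctss, the protease that trims the invariant chain, differed by -0.17 ± 0.12 (0.427), and Ifi30, a thiol reductase of the same compartments, by 0.41 ± 0.19 (0.188). Of the 6 costimulatory and checkpoint ligands tested, none passed in this comparison by edgeR or by DESeq2. None of the 6 had an unadjusted edgeR p under 0.05, which 5148 of the 19267 genes tested had. Cd274, which encodes the ligand of PD-1, differed by -0.33 ± 0.22 (0.367).

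Interferon-gamma signalling genes were measured because interferon-gamma is the classical inducer of Ciita. Of 8 such genes, 1 was lower, 1 was higher and 6 did not pass in DKO against WT after DSS. In this comparison 11.2% of all genes tested passed in either direction and 5.98% passed as lower. Irf1, a transcription factor that interferon-gamma induces, was at 109, 93.8 and 95.6 CPM in DSS DKO, against 149.6, 161 and 165 CPM in DSS WT, and fell by 0.67 ± 0.12 on the log2 scale (edgeR adjusted p = 0.00467). Its groups did not overlap. Ifngr1, a receptor chain, rose by 0.42 ± 0.12 (0.0478), a call lost without any 1 library other than DSS DKO replicate 1 and the baseline WT pair (0.0543 to 0.163). Ifng itself had 0, 8 and 0 counts in DSS DKO, against 30, 45 and 19 in DSS WT, and did not pass (0.0679), at a level of at most 0.839 CPM in any library.

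Irf1 did not follow the class II genes across the baseline libraries. It was at 117, 154 and 135 CPM in baseline DKO, against 138 and 143 CPM in baseline WT. Baseline WT replicate 1, with its high class II levels, was close to replicate 2 for Irf1, and its 6 counts of Ifng compare with 2 in replicate 2. In DKO, Irf1 was lower after DSS than at baseline (log2 fold change of -0.45 ± 0.12; edgeR adjusted p = 0.0167), a call lost without DSS DKO replicate 2 (0.0675) or baseline DKO replicate 2 (0.0762). None of the 8 genes passed the interaction by edgeR, 1 had an unadjusted p under 0.05 and 1 passed by DESeq2. By edgeR, 1.57% of all genes tested passed the interaction, and 3636 of the 19267 had an unadjusted p under 0.05.

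Cells that carry class II genes constitutively were looked for through their markers. Epithelial markers dominated all libraries: the 10 genes summed to 16081 to 16706 CPM in DSS DKO, 16755 to 18160 CPM in DSS WT, 18532 to 21157 CPM in baseline DKO and 15482 to 17221 CPM in baseline WT. None of the 10 passed in DKO against WT after DSS by edgeR (1 had an unadjusted p under 0.05, and 1 passed by DESeq2). By edgeR, 11.2% of all genes tested passed in this comparison, and 5148 of the 19267 had an unadjusted p under 0.05. Epcam, the epithelial adhesion molecule, differed by -0.23 ± 0.14 on the log2 scale (edgeR adjusted p = 0.331). The label of epithelial cells was thus borne out by these markers in all 11 libraries.

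Markers of leukocytes were present at low levels in every library. In DKO against WT after DSS, 11.2% of all genes tested passed in either direction and 5.98% passed as lower. Ptprc (CD45), carried by all leukocytes, was at 30.5, 17.2 and 14.4 CPM in DSS DKO, against 41.8, 54.1 and 39.9 CPM in DSS WT, and fell by 1.13 ± 0.25 on the log2 scale (edgeR adjusted p = 0.0155). Of the 10 dendritic cell markers, 7 were tested and Itgae, which T cells of the epithelium also carry, was lower in DKO after DSS (-1.22 ± 0.27; 0.0150). That call was lost without DSS DKO replicate 2 (0.0801) or DSS WT replicate 2 (0.0541), as was that of Ptprc (0.0793 and 0.0596). The 10 genes summed to 8.87 to 17.2 CPM in DSS DKO, 25.5 to 30.6 CPM in DSS WT, 8.93 to 10.99 CPM in baseline DKO and 7.72 to 14.2 CPM in baseline WT. These sums were separated after DSS in the same direction as the class II genes. Itgae alone made up the largest part of them, at 5.49 to 10.8 CPM in DSS DKO and 16.9 to 18.8 CPM in DSS WT. Among the defining markers, Flt3 and Zbtb46 had at most 35 counts in any library and did not pass, Xcr1 had at most 12, and Itgax (CD11c), whose groups did not overlap, differed by -0.998 ± 0.46 (0.191). Clec9a, Batf3 and Siglech were under the filter on low counts. Their part in the class II result was not tested.

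Of the 10 T cell markers, 7 were lower in DKO after DSS (Cd3e, Cd3d, Cd3g, Cd8a, Trac, Trbc2 and Lck) and 3 did not pass, beside the 5.98% of all genes tested that passed as lower. The median log2 difference of the 10 was -1.26. Their sum was 15.7 to 33.4 CPM in DSS DKO, 47.4 to 57.8 CPM in DSS WT, 18.8 to 23.2 CPM in baseline DKO and 18.1 to 25.7 CPM in baseline WT. None of the 10 passed without DSS DKO replicate 2, 1 passed without DSS WT replicate 2, 3 passed without DSS WT replicate 3, and 4 passed without DSS DKO replicate 3 or DSS WT replicate 1. These markers were measured in every library although the labels give a density step to remove lymphocytes. T cells are not a main source of class II RNA in the mouse but are the main source of interferon-gamma. The part of this difference in the class II result was not tested.

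The summed B cell markers and the summed macrophage markers overlapped between the genotypes after DSS. Among all genes tested, 11.2% passed between these groups in either direction and 5.98% passed as lower in DKO. None of the 9 B cell markers passed in DKO against WT after DSS by edgeR or by DESeq2. An unadjusted edgeR p under 0.05 was found for 3 of them, and for 5148 of the 19267 genes tested. All 9 markers had a negative log2 difference, with a median of -1.27. Their sum was 2.83 to 4.25 CPM in DSS DKO and 2.51 to 14.4 CPM in DSS WT, with DSS WT replicate 2 highest and replicate 3 lowest of all. Ms4a1 had 32 counts in DSS WT replicate 3 and 118 in replicate 2. The part of B cells in the class II result was not tested. Of 11 macrophage and monocyte markers, Ccr2, a chemokine receptor of monocytes, was lower (-1.18 ± 0.34; edgeR adjusted p = 0.0438) and 10 did not pass. The call of Ccr2 was lost without any 1 library other than DSS DKO replicate 1 (0.0519 to 0.165). Their sum overlapped between DSS DKO (22.7 to 38.1 CPM) and DSS WT (25.4 to 32.2 CPM), and Csf1r, the macrophage growth factor receptor, differed by 0.55 ± 0.30 (0.258).

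Baseline WT replicate 1 differed less from replicate 2 in the marker sums than in the class II genes. Its dendritic cell and T cell sums were still the highest among the baseline libraries. In baseline DKO these sums were 8.93 to 10.99 CPM and 18.8 to 23.2 CPM. Beside its 410.4 CPM of class II RNA, against 78.9 CPM in replicate 2, its markers summed to 14.2 against 7.72 CPM for dendritic cells, 14.9 against 16.3 CPM for macrophages and monocytes, 4.77 against 4.89 CPM for B cells and 25.7 against 18.1 CPM for T cells. Among the dendritic cell markers, Itgae had 432 counts in replicate 1 and 219 in replicate 2, Itgax 149 and 44, and Flt3 14 and 0. Xcr1 had 9 and 2, Clec9a 8 and 2, Siglech 8 and 6, and Cd209a 3 and 2. Ccr7 had 48 and 49, Zbtb46 32 and 35, and Batf3 0 and 4. Itgax was 3.22 times as high in replicate 1, within the 2.70 to 7.36 times of the class II genes. The part of these cells in the class II level of replicate 1 was not tested.

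**Figure D5:**
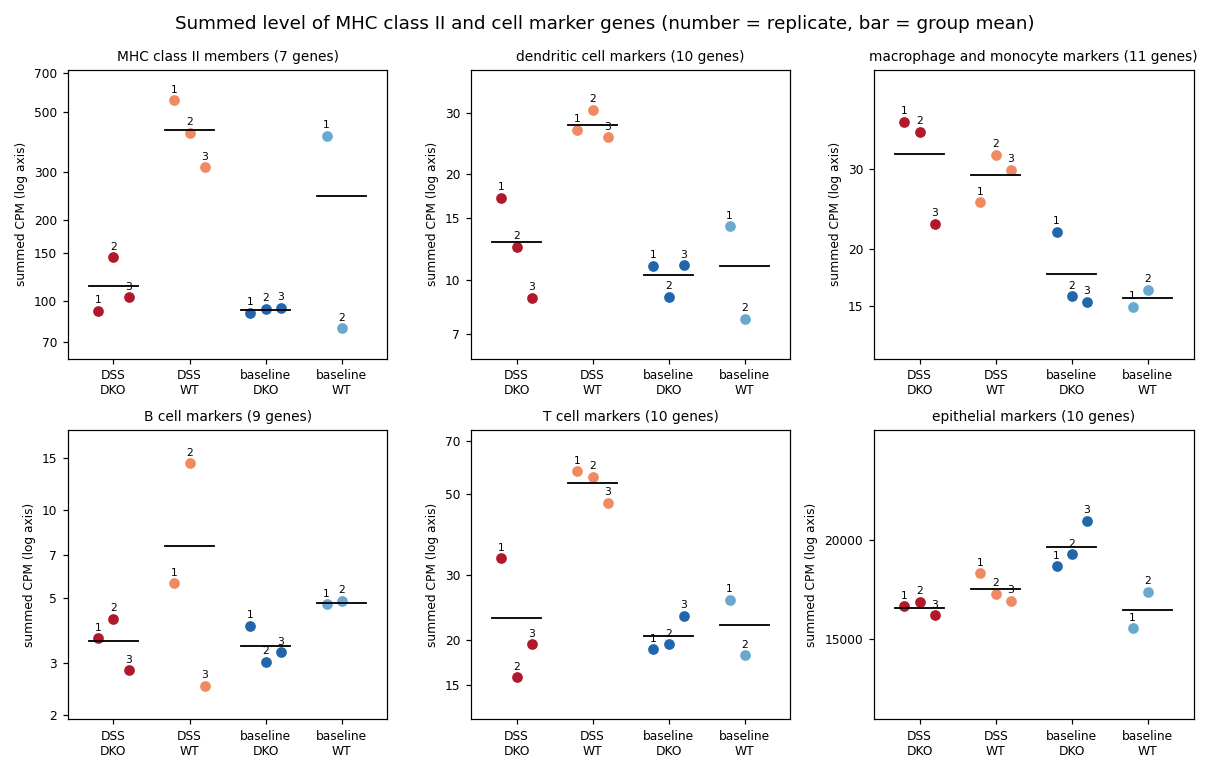
Summed CPM (log axes) of the 7 class II genes and of 5 marker lists in each library, with the 4 groups on the x axis; points are libraries numbered by replicate and bars are group means. Dendritic and T cell sums are lower in DSS DKO than in DSS WT, and macrophage and B cell sums overlap. The largest part of the dendritic cell sum is Itgae, which T cells of the epithelium also carry. Baseline WT replicate 1 stands out in the class II panel.

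After DSS, 5 of 7 markers of group 3 innate lymphoid cells, which can carry class II molecules, were tested, and Il1r1 was higher in DKO (log2 fold change of 0.82 ± 0.21; edgeR adjusted p = 0.0267) while 4 did not pass. The call of Il1r1 was lost without any 1 DSS library other than DSS DKO replicate 1 (0.0621 to 0.115). Il22 and Il23r were under the filter. In DKO against WT after DSS, 11.2% of all genes tested passed in either direction.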

How the data were processed

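RNA from 11 libraries was enriched for mRNA on oligo(dT) beads and made into libraries with the NEBNext Ultra II kit, per the labels' protocols. The authors deposited whole-number read counts per gene, made with STAR and mm10 per the submitters' processing notes; for the counter, its strand setting and the annotation, the sources used here name none. The 7 genes and all lists were chosen with earlier results of these data known. Counts were tested with the quasi-likelihood F-test of edgeR 4.0.16 (R 4.3.3, limma 3.58.1, robust fit, TMM) in 1 model with a mean per group over all 11 libraries. Of 54513 genes, 19267 passed filterByExpr at a minimum count of 10, and p-values were adjusted over these by Benjamini-Hochberg with a threshold of 0.05. Fold changes have SEs, and levels are given as TMM-scaled CPM. Tested on simulated data, the scripts called at least a set share of large known changes between groups. No limit was set for smaller changes or the interaction, and no outlying library was simulated. Alternatives were DESeq2 1.42.0, its size factors, no filter, a replicate block, fits of the compared groups alone, no Rn18s-rs5, each library left out and, chosen after seeing the data, both libraries rich in Rn18s-rs5 left out. Within groups, replicates differed by more than sampling noise (chi-square per degree of freedom of 14.53 to 788.7). This measure scaled counts by library total without TMM and kept Rn18s-rs5. Its highest value was for baseline DKO replicates 1 and 3, in which Rn18s-rs5 took 23.05% and 0.3152% of counts. Named genes were the 7 members, up to 4 called genes per list with the lowest adjusted p, a fixed set of reference genes, and the 10 genes most like the members by Pearson correlation of log2 CPM (prior count 2) with their mean; other names were chosen after their values were seen. The labels do not say that the replicate numbers pair the libraries, and the main model did not pair them. Depth limits the low genes: the fewest counts of a member were 55 (Ciita in DSS DKO replicate 3). Some genes of the lists are not reported here.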

Additional observations from a re-analysis of the deposited data

How the results depend on the processing

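Of the 7 class II genes, 3 passed in DKO against WT after DSS, and 0 in each other comparison. The counts called in the alternative fits below are given without the share of all genes that each fit called. They describe the settings and are no further support for a class II difference. At baseline the 2 WT libraries differed by 2.70 (H2-DMa) to 7.36 times (H2-Aa). Without the filter on low counts the counts called were 7 after DSS, 5 at baseline, 4 for DSS against baseline in WT, 1 for the same in DKO and 0 for the interaction; DESeq2 called 7 after DSS and 3 for DSS in WT; and fits of the compared groups alone called 6 after DSS and 1 for DSS in DKO (H2-Ab1). Without both libraries rich in Rn18s-rs5, 0 passed after DSS. Leaving out 1 library gave 0 to 7 after DSS, 0 to 6 for DSS in WT and 0 to 1 for DSS in DKO, and the log2 difference after DSS stayed negative for all 7 genes in all settings.

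With the replicate number as a block, 4 genes passed after DSS (Ciita joining at an edgeR adjusted p of 0.0147) and 1 for DSS in WT (H2-Eb1, 0.0441). Deviations from group means correlated at -0.07054 to 0.3018 in the 15 same-numbered pairs, of which 4 were above 0.1. In the 30 others they correlated at -0.3026 to 0.1982, and 3 were above 0.1. The labels do not say whether the numbers pair libraries, and these correlations cannot settle it.

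Leaving out 1 library turned the direction of several uncalled log2 differences. At baseline the ranges were -2.50 to 0.36 (H2-Aa), -2.06 to 0.74 (H2-Ab1), -2.34 to 0.076 (Cd74), -1.90 to 0.17 (Ciita), -1.36 to 0.055 (H2-DMa) and -1.54 to 0.40 (H2-DMb1), the ends being the fits without baseline WT replicate 2 and replicate 1. For DSS in WT they were -0.68 to 1.73 (Cd74), -0.58 to 1.63 (Ciita) and -0.20 to 1.22 (H2-DMa), and for DSS in DKO -0.040 to 0.35 (H2-Aa) and -0.0027 to 0.33 (H2-DMa). For the interaction they were -2.84 to 0.020 (H2-Aa), -2.68 to 0.13 (H2-Ab1), -1.91 to 0.50 (Cd74), -2.15 to 0.055 (Ciita) and -1.06 to 0.35 (H2-DMa). After DSS, H2-DMb2 ranged over -1.55 to 0.084 and Rfx5 over -0.044 to 0.17. Without both libraries rich in Rn18s-rs5, H2-Aa differed by -0.049 for DSS in DKO and H2-DMa by 0.014 in the interaction. Baseline WT has 2 libraries, so each fit without 1 assumes that the other varies like the remaining groups; otherwise the cause of these changes was not tested.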
